A study of Homo sapiens with 2 samples.

Results

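The cytochrome P450 genes are described here in a sorafenib-resistant and a parental culture, both labelled HepG2, a human liver cancer line. They were taken as every gene of the deposited table whose symbol is CYP followed by a family number, a subfamily letter and a gene number, leaving out CYP51A1. This gave 55 of 50868 genes. The resistant culture had been selected in sorafenib, an oral multikinase inhibitor given for liver cancer, from 2.5 µM upward in steps of 0.5 µM to 7 µM. The labels do not say whether the drug was present at harvest. The parental culture was untreated. Each group had 1 library of messenger RNA, so no value has an SD or a test of the conditions, and each interval given covers counting error only. Counts summed to 16811907 in the resistant library and 18067146 in the parental library.

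P450 enzymes are heme proteins that insert an oxygen atom into drugs, foreign chemicals, fatty acids, sterols, steroid hormones and vitamins. Those of the endoplasmic reticulum receive electrons from P450 oxidoreductase, and those of mitochondria from ferredoxin. The hepatocyte is the main site of P450 drug oxidation, and CYP3A4 is the P450 known for oxidising sorafenib itself. Many P450 genes are induced through receptors, such as AHR for CYP1A1, PXR for CYP3A4 and retinoic acid receptors for CYP26A1.

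The family was sparse in both libraries, and what was transcribed belonged mostly to retinoid and vitamin D metabolism. A gene was called measured when its larger CPM (counts relative to library size, scaled with TMM factors) was at least 1. By this rule 14 P450 genes were measured, 10 had counts below the limit and 31 had 0 counts in both libraries. The 31 were 56.4% of the family, against 24.8% of the 19691 protein-coding genes of the table. The measured share was 25.5% of the family, against 61.8% of protein-coding genes. With no count, a gene could still have stood at up to 0.179 CPM in the resistant and 0.166 CPM in the parental library, what 3 counts amount to. The P450 genes that define hepatic drug metabolism were at or near 0: CYP2C8, CYP2C19, CYP2E1, CYP2B6, CYP2A6 and CYP1A2 had no count in either library.

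No measured P450 gene differed by 2-fold or more between the cultures. All 14 CPM ratios of resistant over parental lay between 0.53 and 1.39. The largest difference was that of CYP26A1, which encodes a retinoic acid hydroxylase, at 0.533-fold (95% interval 0.342 to 0.814). CYP39A1, an oxysterol hydroxylase gene of bile acid synthesis, stood at 0.687-fold (0.499 to 0.940). On their own counts, these were the only ones of the 14 whose interval did not include 1. Among the genes with counts below the limit, the intervals of CYP4F12 and CYP2D7 also lay below 1. With the counts of a read-through gene that shares its exons added, CYP3A7 stood at 1.48-fold (1.12 to 1.97). In bulk RNA, fewer cells that transcribe a gene and less RNA per cell cannot be told apart.

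The cells were checked against markers. Of 9 hepatocyte markers, ALB, APOA1, APOB, TTR, SERPINA1, FGB and AFP had 0 counts in both libraries, and TF and HNF4A summed to 4 counts in the resistant and 3 in the parental library. These values go against the HepG2 label, since hepatocyte messages such as ALB are known from that line. The names resistant and parental stand for the libraries so labelled. Of 4 fibroblast markers all were measured, at a summed 397 CPM in the resistant and 392 CPM in the parental library. Within them LUM stood at 2.51-fold (1.96 to 3.24), PDGFRB at 1.20-fold (1.06 to 1.36) and COL1A1 at 1.10-fold (1.04 to 1.16). COL3A1, with the most counts of the 4, stood at 0.896-fold (0.855 to 0.939). Of 4 ductal markers only KRT7 was measured, at 2516 CPM in the resistant and 1892 CPM in the parental library, and EPCAM had 0 counts. KRT19, with 12 counts in the resistant and 14 in the parental library, was below the limit. So was SOX9, with 13 in the resistant and 9 in the parental library. Of the endothelial markers, which summed to 4.71 CPM in the resistant and 1.55 CPM in the parental library, CDH5 had 72 counts in the resistant and 20 in the parental library and PECAM1 had 7 in the resistant and 8 in the parental library, and the leukocyte marker PTPRC was at 0. The part of these cell markers in the P450 values was not tested.

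Short promoter windows show the kinds of sequence that precede the P450 genes of these results. All are from RefSeq on build GRCh38.p14, in the direction of transcription, and positions are counted from the start site. The first is the window of CYP26A1, the measured gene with the lowest ratio, at chr10:93073797-93073826 on the plus strand, from -96 to -67. Its capitals mark both copies of a direct repeat with 5 bases between them, the arrangement that retinoic acid receptors bind. The window overlaps an exon of the gene as annotated in GENCODE 29.
CYP26A1: taaagaTGAACTttgggTGAACTaattgtc

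The repeat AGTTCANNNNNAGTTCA, searched on both strands, occurred in 4 of 35116 promoter windows of 300 bases (0.0114%). Its letters are those of the CYP26A1 repeat itself, so the match in CYP26A1 was given in advance. Other spellings of the repeat were not searched, so the share is not that of all such elements. The other windows with it belong to PDC, PHF8 and LOC102723752. PHF8, a histone demethylase gene, had 677 counts in the resistant and 748 in the parental library, and PDC had 0 in both.

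The second is from CYP1A1, the classical AHR target, at chr15:74725568-74725597 on the minus strand, from -69 to -40. Its capitals mark GCGTG, the core that AHR with ARNT binds, which 36.5% of all promoter windows hold on either strand. It too overlaps an annotated exon of its own gene.
CYP1A1: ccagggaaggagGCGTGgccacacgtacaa

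The last windows show the TATA box, TATAAA in capitals, of CYP3A7, which was measured, of CYP3A4, which had counts below the limit, and of CYP2E1, CYP2C19 and CYP2A6, which had none. They lie at chr7:99735208-99735237 (minus strand), chr7:99784196-99784225 (minus), chr10:133527321-133527350 (plus), chr10:94762638-94762667 (plus) and chr19:40850459-40850488 (minus). These examples were chosen after the values were seen. The CYP3A7 and CYP3A4 windows are identical at 29 of 30 positions. In GENCODE 29 those of CYP3A7, CYP2C19 and CYP2A6 overlap no exon, that of CYP3A4 an exon of its own gene, and that of CYP2E1 an exon of AL161645.1 on the opposite strand.
CYP3A7: ccttctccagcaTATAAAcaatccaacagc
CYP3A4: ccttctctagcaTATAAAcaatccaacagc
CYP2E1: ctcagaacacatTATAAAaaccttccgttt
CYP2C19: agcatggagtgtTATAAAaagcttggagtg
CYP2A6: tttttcaggcagTATAAAggcaaaccaccc

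**Figure D1:**
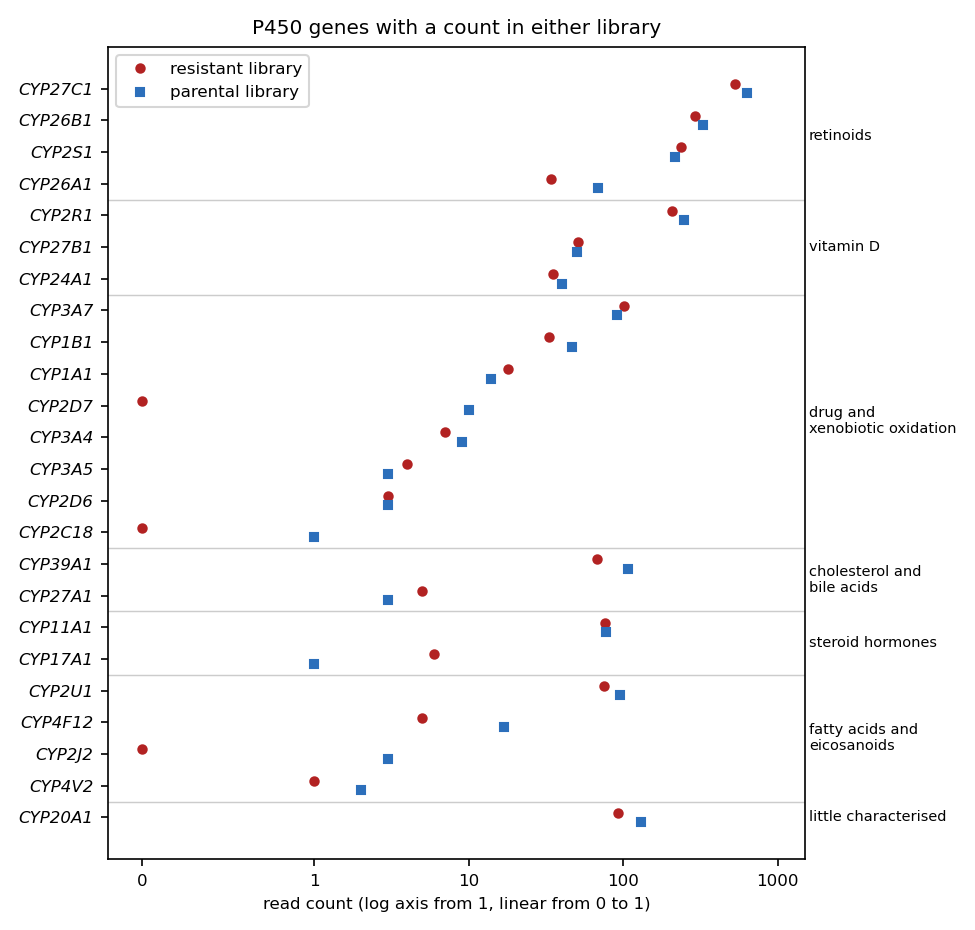
Read counts of the 24 P450 genes with a count, resistant library as circles and parental library as squares, grouped by role (log axis from 1, linear from 0 to 1). Retinoid genes lead, with CYP27C1 at 531 counts in the resistant and 636 in the parental library, and most drug-oxidising P450 genes lie at 10 counts or fewer.

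The retinoid-metabolising genes, with CYP2S1 counted among them, held most of the P450 counts. Without CYP2S1, which had 238 counts in the resistant and 216 in the parental library, they were no majority in either library. Of 5 members 4 were measured and CYP26C1 had 0 counts. They took 58.1% of P450 counts in the resistant library (95% Wilson interval 55.9 to 60.3) and 56.8% in the parental library (54.7 to 58.8). The shares overlap in their counting intervals.

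CYP27C1 (ENSG00000186684; chromosome 2, 127184120 to 127220078, minus strand, GRCh38) was the P450 gene with the highest level. It encodes a retinol desaturase known from skin. It had 531 counts in the resistant and 636 in the parental library, which is 31.7 CPM in the resistant and 35.1 CPM in the parental library. The deposited FPKM, a level per length, was 5.78 in the resistant and 6.44 in the parental library, and the ratio was 0.903-fold (0.803 to 1.01). This gene alone took 28.2% of P450 counts in the resistant library (26.2 to 30.3) and 28.9% in the parental library (27.0 to 30.8).

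CYP2S1, an extrahepatic P450 gene whose product has been reported to act on retinoic acid and lipids, came next by FPKM. It had 238 counts in the resistant and 216 in the parental library, and its FPKM was 3.06 in the resistant and 2.58 in the parental library. Its ratio of 1.19-fold had an interval from 0.987 to 1.44, so the difference was within counting error. CYP26B1, which encodes a retinoic acid hydroxylase of peripheral tissues and embryo, had 292 counts in the resistant and 329 in the parental library. Its FPKM was 1.95 in the resistant and 2.04 in the parental library, at 0.959-fold (0.817 to 1.13).

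CYP26A1 (ENSG00000095596; chromosome 10, 93073475 to 93077890, plus strand), a textbook target of retinoic acid, was the low one of the group. It had 34 counts in the resistant and 69 in the parental library, which is 2.03 CPM in the resistant and 3.81 CPM in the parental library. Its FPKM was 0.330 in the resistant and 0.623 in the parental library. Resistant over parental, the ratio was 0.533-fold and the log2 ratio of CPM + 1 was -0.67, inside the size rule of 1 in either direction. The paralog CYP26B1 had more counts in both libraries, and its interval included 1.

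The genes around retinoic acid were present without a common direction. Of 12 listed genes 7 were measured, none past the size rule, with a median log2 ratio of -0.04. DHRS3, a retinaldehyde reductase gene that retinoic acid induces, had 1671 counts in the resistant and 2411 in the parental library, at 0.749-fold (0.703 to 0.798). CRABP2, a retinoic acid carrier gene, stood at 1.21-fold (0.937 to 1.55), and RARA, a receptor gene, at 0.887-fold (0.805 to 0.978). RARB, the receptor gene known as a strong retinoic acid target, had 0 counts in the resistant and 1 in the parental library.

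All 3 P450 genes of vitamin D metabolism were measured, and the interval of each ratio included 1. CYP2R1, which encodes the hydroxylase of the first activating step, had 208 counts in the resistant and 248 in the parental library, at 0.907-fold (0.750 to 1.09). CYP27B1, which encodes the hydroxylase that makes the active hormone, had 51 counts in the resistant and 50 in the parental library, at 1.10-fold (0.732 to 1.66). It shares exons with METTL1, so reads may have been divided between them, and the locus summed to 198 counts in the resistant and 185 in the parental library. CYP24A1, which encodes the inactivating hydroxylase and is itself a target of the vitamin D receptor, had 35 counts in the resistant and 40 in the parental library, at 0.946-fold (0.583 to 1.53). Of the receptor genes, VDR was at 20.1 CPM in the resistant and 28.6 CPM in the parental library, 0.703-fold (0.611 to 0.808), and its partner RXRA at 0.743-fold (0.647 to 0.851). RXRB was at 1.20-fold (1.11 to 1.29). Of 8 listed vitamin D genes 5 were measured, none past the size rule, with a median log2 ratio of 0.14.

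Of the 19 genes of drug and xenobiotic oxidation 3 were measured and 11 had 0 counts. CYP3A7, the fetal liver form of the CYP3A enzymes, was the most abundant, with 101 counts in the resistant and 91 in the parental library. Its FPKM was 1.34 in the resistant and 1.12 in the parental library. Its ratio was 1.20-fold (0.895 to 1.61). The read-through gene CYP3A7-CYP3A51P, which shares its exons, had 24 counts in the resistant and 0 in the parental library. Against a floor of 3 parental counts this was 8.65-fold higher, and the counting interval of the ratio began at 6.51. The log2 ratio of the read-through gene, 1.28, was past the size rule. Together CYP3A7 and the read-through gene had 125 counts in the resistant and 91 in the parental library, at 1.48-fold (1.12 to 1.97). How reads of near-identical CYP3A genes were assigned is not given, so the single values are uncertain. CYP3A4, the main hepatic form, had 7 counts in the resistant and 9 in the parental library. CYP3A5 had 4 counts in the resistant and 3 in the parental library, and CYP3A43 none. The CYP3A4 ratio was 0.841-fold (0.266 to 2.54). With so few counts, a difference in CYP3A4 messenger RNA inside that interval was not detectable at this depth.

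The CYP1 genes were low beside abundant AHR and ARNT. CYP1B1, an extrahepatic P450 gene that acts on estradiol and polycyclic hydrocarbons, had 33 counts in the resistant and 47 in the parental library, at 0.759-fold (0.471 to 1.21). CYP1A1 had 18 counts in the resistant and 14 in the parental library, at 1.39-fold (0.653 to 3.02), and CYP1A2 had none. Both differences were within counting error. CYP1B1 overlaps RMDN2 and CYP1B1-AS1 on the opposite strand, and whether counting used strand is not given.

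AHR stood at 55.8 CPM in the resistant and 51.4 CPM in the parental library, and ARNT, its partner, at 91.1 CPM in the resistant and 84.3 CPM in the parental library. AHRR, the AHR repressor gene and itself an AHR target, had 1992 counts in the resistant and 2950 in the parental library, at 0.730-fold (0.689 to 0.773). It shares exons with PDCD6, and with the counts of that gene added its log2 ratio was -0.21, against -0.45 alone. Of 9 listed AHR pathway genes 8 were measured and none was past the size rule, with a median log2 ratio of -0.02. ALDH3A1, an aldehyde dehydrogenase gene that AHR induces, had 16 counts in the resistant and 29 in the parental library. ARNT2 had 25 counts in the resistant and 16 in the parental library.

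The remaining drug-oxidising members had few counts. CYP2D6, which oxidises many prescribed drugs, had 3 counts in each library. Its near-identical neighbour CYP2D7 had 0 counts in the resistant and 10 in the parental library, a ratio whose interval ended at 0.482. CYP2D7 was below the measured limit, and reads of this pair may be assigned to either. CYP2C18 had 0 counts in the resistant and 1 in the parental library. CYP2A7, CYP2A13 and CYP2F1 had 0 counts in both, beside the hepatic genes named above.

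Of 6 genes of cholesterol and bile acid oxidation CYP39A1 was measured. CYP39A1 (ENSG00000146233; chromosome 6, 46549580 to 46652830, minus strand) had 68 counts in the resistant and 107 in the parental library, which is 4.06 CPM in the resistant and 5.91 CPM in the parental library. Its log2 ratio was -0.45, within the size rule. CYP27A1, the mitochondrial sterol hydroxylase gene of the acidic bile acid pathway, had 5 counts in the resistant and 3 in the parental library. CYP7A1, the rate-limiting enzyme gene of bile acid synthesis, had 0 counts in both, as had CYP7B1, CYP8B1 and the brain cholesterol hydroxylase gene CYP46A1. Of 9 further genes of bile acid synthesis and transport 4 were measured, none past the size rule, with a median log2 ratio of 0.08. SCP2, a peroxisomal thiolase and sterol carrier gene, stood at 0.802-fold (0.735 to 0.876), SLC27A5, a bile acid ligase gene, at 1.08-fold (0.847 to 1.38) and AMACR, a racemase gene, at 1.07-fold (0.874 to 1.30). AMACR shares exons with other annotated genes, and with their counts added its log2 ratio was 0.022, against 0.084 alone.

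Of 6 genes of steroid hormone synthesis CYP11A1 was measured. It encodes the side chain cleavage enzyme that starts steroid synthesis, and it had 76 counts in the resistant and 77 in the parental library, at 1.07-fold (0.767 to 1.48). It overlaps AC090826.1 and PPIAP46 on the opposite strand. CYP17A1, the next enzyme gene toward cortisol and androgens, had 6 counts in the resistant and 1 in the parental library, a ratio whose interval ran from 0.787 to 298. CYP19A1, the aromatase gene, had 0 counts in both, as had CYP21A2, CYP11B1 and CYP11B2. In the list of other steroid synthesis genes 3 of 9 were measured and none was past the size rule, with log2 ratios of 0.05 for HSD17B1, -0.08 for HSD17B4 and -0.05 for SRD5A1. HSD17B2 was just below the measured limit, with 0 counts in the resistant and 18 in the parental library, the larger being 0.993 CPM. The interval of its ratio ended at 0.246.

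Of 12 genes of fatty acid and eicosanoid oxidation CYP2U1 was measured. It encodes a hydroxylase of long-chain fatty acids, and it had 75 counts in the resistant and 95 in the parental library, at 0.853-fold (0.622 to 1.17). It overlaps CYP2U1-AS1 and AC096564.1 on the opposite strand. CYP4F12, a fatty acid hydroxylase gene, was just outside the measured set with 5 counts in the resistant and 17 in the parental library, the larger being 0.938 CPM. Its ratio was 0.318-fold (0.0917 to 0.898), from few counts. The least abundant measured member was CYP1A1, whose larger value was 1.07 CPM. CYP2J2, an arachidonic acid epoxygenase gene, had 0 counts in the resistant and 3 in the parental library, and CYP4V2 had 1 in the resistant and 2 in the parental library. CYP4A11, CYP4A22, CYP4B1, CYP4F2, CYP4F3, CYP4F8, CYP4F11 and CYP4F22 had 0 counts in both.

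CYP20A1, whose substrate is not known, had 93 counts in the resistant and 130 in the parental library, at 0.773-fold (0.586 to 1.02). The poorly characterised genes CYP2W1, CYP4X1 and CYP4Z1 had 0 counts in both. Outside the family, 41 further entries had CYP symbols (pseudogenes, antisense and read-through genes, CYP51A1 relatives left out), and 2 were measured. They were CYP3A7-CYP3A51P and the pseudogene CYP4F26P, which had 44 counts in the resistant and 84 in the parental library, at 0.566-fold (0.384 to 0.825).

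The comparison asked whether P450 expression differs between the sorafenib-selected and the parental culture. The size rule took genes whose log2 ratio of CPM + 1 was 1 or more, or -1 or less. It took 0 of 14 measured P450 genes, against 2.3% of all 14686 measured genes, 1.31% higher and 0.994% lower in the resistant library. In the count range of the measured members, 18 to 636 counts in the larger library, the background was 2.74% of 8226 genes. With 14 genes such a share amounts to less than 1 gene, so the count of 0 does not set the family apart from other genes.

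The counting interval did not include 1 for 2 of the 14 (14.3%), both lower in the resistant library, against 42.2% of all measured genes and 33.1% of those in the same count range. This rule reflects counting error alone, and genes with many counts pass it at small ratios. The median log2 ratio of the 14 was -0.09, against -0.0018 for all measured genes. Of the 14, 9 had a negative log2 ratio (64.3%), against 50.3% of all measured genes. The log2 ratios ran from -0.67 for CYP26A1 to 0.23 for CYP2S1. Summed over all 55 genes, the family stood at 112 CPM in the resistant and 121 CPM in the parental library, 0.925-fold (0.870 to 0.984). Fold changes of 23 P450 genes are given in the authors' deposited table. It calls 0 of them up or down, of 271 genes called up and 221 called down in all. That table rests on the same libraries.

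**Figure D2:**
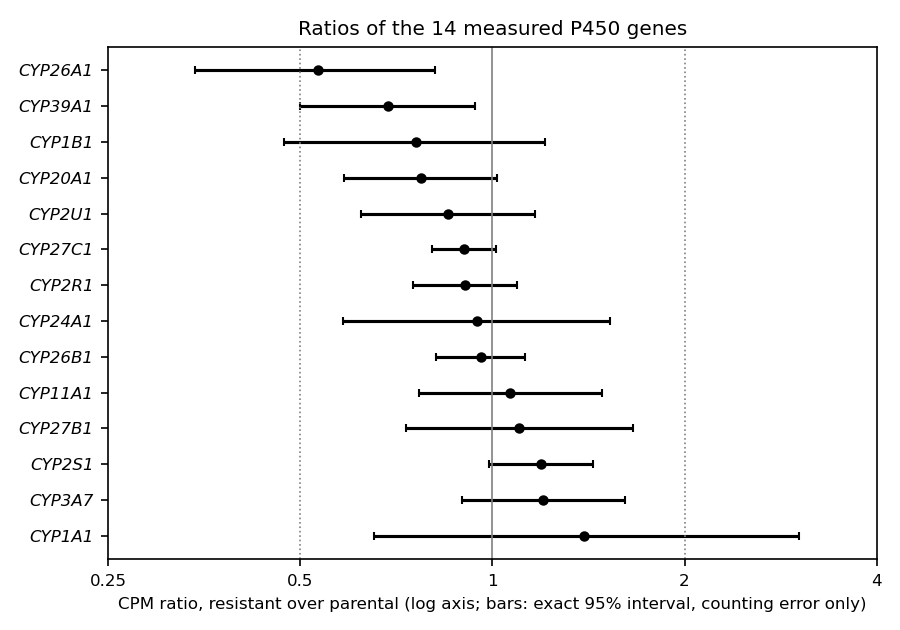
CPM ratio of resistant over parental for the 14 measured P450 genes on a log axis, with exact 95% intervals that cover counting error only; the solid line is at 1 and the dotted lines at 0.5 and 2. All points lie between the dotted lines, and the intervals of CYP26A1 and CYP39A1 lie below 1.

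By level per length, CYP27C1, CYP2S1 and CYP26B1 came in that order in both libraries. CYP2R1 and CYP3A7 differed in order, at FPKM of 1.26 and 1.34 in the resistant library and 1.40 and 1.12 in the parental library. CYP39A1, at 0.935 in the resistant and 1.37 in the parental library, lay between them in the parental library only. With 1 library per group the order of these genes carries no test. The median of the mean FPKM was 0.605 over the 14 genes, against 3.62 over all measured genes. The length that the FPKM divides by ran from 4326 bases for CYP39A1 to 16377 bases for CYP20A1. CYP20A1 therefore ranked lower by FPKM than by count.

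**Figure D3:**
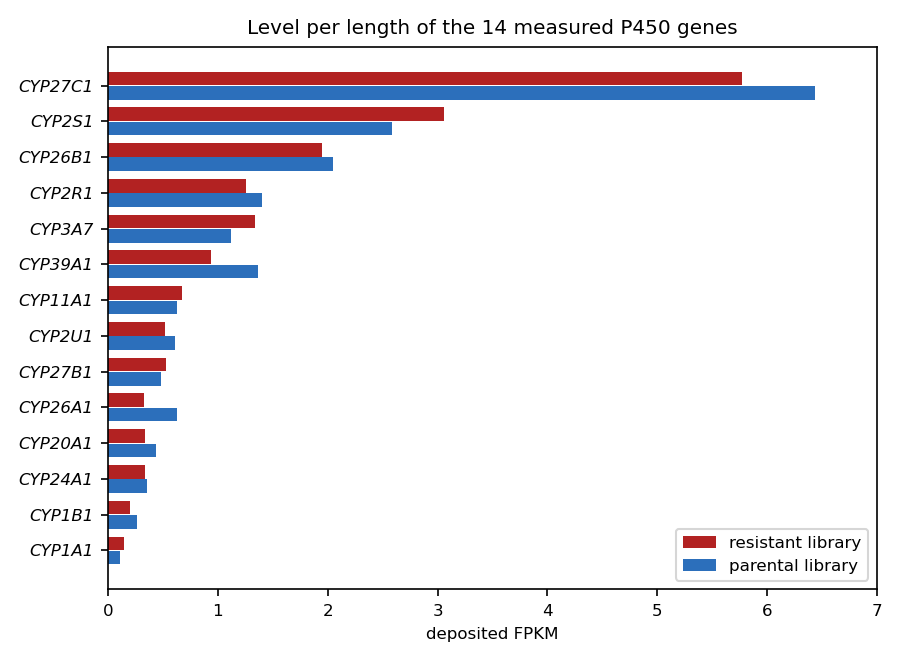
Deposited FPKM of the 14 measured P450 genes in the resistant library (upper bar) and the parental library (lower bar), 1 library each, ordered by the mean of both. CYP27C1 leads at 5.78 FPKM in the resistant and 6.44 in the parental library, and 8 of the genes lie below 1 FPKM in both libraries.

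Most genes of the machinery that P450 enzymes share were measured. Of 8 electron donor genes 7 were measured, none past the size rule, with a median log2 ratio of -0.14. POR, the P450 oxidoreductase gene, had 659 counts in the resistant and 934 in the parental library, at 0.763-fold (0.689 to 0.844). FDX2, a mitochondrial ferredoxin gene of iron-sulfur cluster assembly, stood at 0.647-fold (0.518 to 0.805), and CYB5B, an outer mitochondrial cytochrome b5 gene, at 1.23-fold (1.14 to 1.33). Both share exons on their strand with other annotated genes. With the counts of those genes added, the log2 ratio of FDX2 turned to 0.37, against -0.57 alone, and that of CYB5B was -0.0011, against 0.30 alone. Neither direction is therefore given as that of the gene. FDX1, the ferredoxin that feeds mitochondrial P450 enzymes, was at 1.09-fold (0.979 to 1.22), and FDXR, its reductase, at 0.901-fold (0.757 to 1.07). CYB5A, the microsomal cytochrome b5 gene, had 0 counts in both libraries.

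All 8 genes of heme synthesis were measured and none was past the size rule, with a median log2 ratio of 0.019. ALAS1, the rate-limiting enzyme gene, stood at 71.9 CPM in the resistant and 69.8 CPM in the parental library, 1.03-fold (0.951 to 1.12). ALAD was at 0.869-fold (0.769 to 0.982) and UROS at 1.08-fold (0.970 to 1.19). Of the 6 genes of heme breakdown and P450 membrane partners all were measured and none was past the size rule, with a median log2 ratio of -0.12. The log2 ratios farthest from 0 in the list were negative, at -0.19 for HMOX2, -0.17 for BLVRA and -0.14 for HMOX1. The highest was 0.089, for PGRMC1.

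NR1I2 and NR1I3, the genes of the drug-sensing receptors PXR and CAR, had 0 counts in both libraries. HNF4A, a hepatocyte factor gene, had 2 counts in the resistant and 2 in the parental library. Of 15 listed receptors and factors 7 were measured, none past the size rule, with a median log2 ratio of -0.06. PPARA, a fatty acid receptor gene, stood at 1.56-fold (1.22 to 2.01), CEBPA, a liver-enriched factor gene, at 0.709-fold (0.622 to 0.808) and RXRA at 0.743-fold as above.

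Enzymes that act beside P450 gave few values. EPHX1, the microsomal epoxide hydrolase gene, had 860 counts in the resistant and 1493 in the parental library, at 0.623-fold (0.572 to 0.678). On the log2 scale of CPM + 1 this was -0.67. EPHX4 stood at 0.792-fold (0.563 to 1.11), EPHX2 at 1.29-fold (0.837 to 1.99), and EPHX3 had 0 counts, so none of the 3 measured of 4 epoxide hydrolases was past the size rule. Of 5 flavin monooxygenase genes FMO4 was measured, with 10 counts in the resistant and 23 in the parental library. TBXAS1, the thromboxane synthase gene and a P450 by structure, had 3 counts in the resistant and 5 in the parental library, and PTGIS, the prostacyclin synthase gene, had none.

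**Figure D4:**
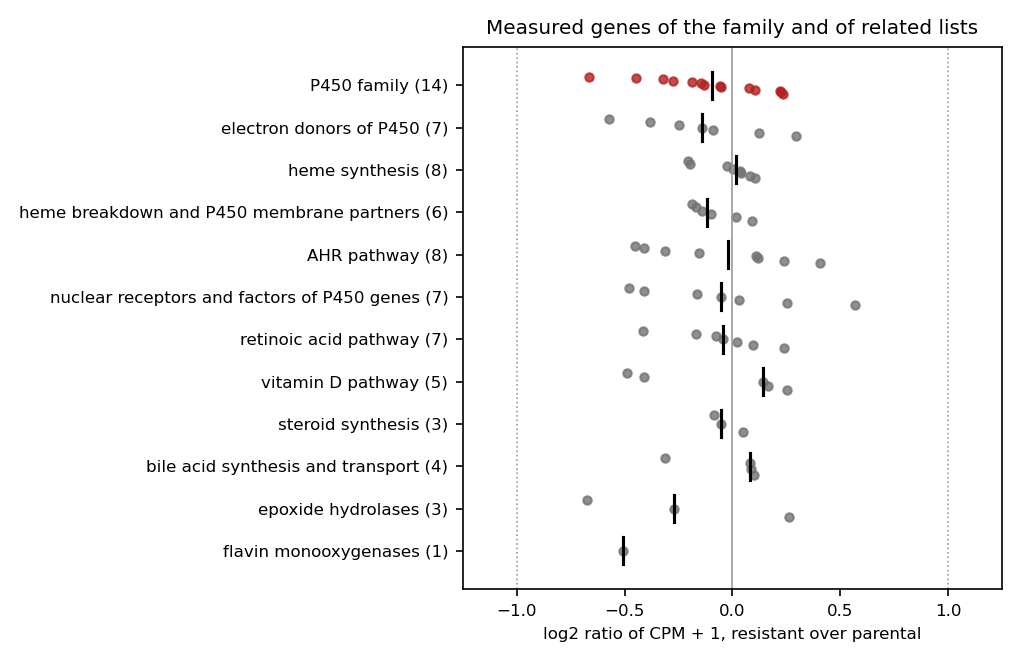
Log2 ratio of CPM + 1, resistant over parental, for each measured gene of the P450 family (top row) and of related lists, with the number of measured genes in brackets and the median as a black bar; dotted lines mark the size rule at -1 and 1. No gene shown lies past the size rule, and the P450 median is at -0.09.

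The promoters of measured and silent members were compared by their letters. RefSeq promoter windows of 250 bases before to 50 bases after the start site were matched by symbol, and the start nearest to the gene's 5′ end was used. Windows were found for 11 of 14 measured genes, 6 of 10 with counts below the limit and 21 of 31 with 0 counts. The observed over expected CpG ratio was at least 0.6 in 6 of the 11 measured genes (54.5%) and in 3 of the 21 silent genes (14.3%). Over all genes with a window it was 83.5% of 10251 measured genes and 25.2% of 5381 genes with 0 counts. The medians were 0.624 for the measured and 0.146 for the silent P450 genes, against 0.845 over all measured genes and 0.281 over all genes with 0 counts. Both P450 medians were below those of all genes, and in both sets the measured genes had the higher median. The counts depend on the start used, since some genes have another window on the other side of 0.6. CYP2R1 was taken at 0.568 and has another window at 0.768, and CYP27C1 was taken at 0.624 and has another at 0.507. Of the silent genes, CYP4X1 was taken at 0.913 and has another window at 0.0505.

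TATAAA on either strand, starting between -35 and -25, was found in 2 of the 11 measured P450 genes (18.2%), CYP3A7 and CYP1A1, and in 9 of the 21 silent ones (42.9%). Over all genes it was found in 2.03% of measured genes and 5.85% of genes with 0 counts. For CYP26A1 the window used is that of the upstream start, and the window of the downstream start, which holds the repeat printed above, has a CpG ratio of 0.957 and TATAAA at -31. These shares describe letters in short windows and carry no test.

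**Figure D5:**
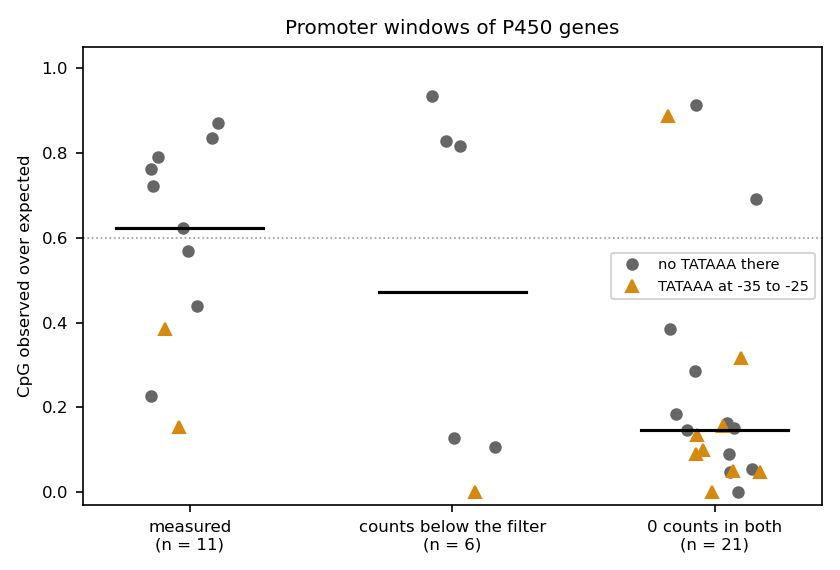
Observed over expected CpG ratio of the promoter window of each P450 gene with a RefSeq window, by whether the gene was measured, had counts below the limit or had 0 counts in both libraries; triangles have TATAAA between -35 and -25, bars are medians and the dotted line is at 0.6. Of the silent genes 3 of 21 lie above the line, against 6 of the 11 measured genes.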

How the data were processed

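Messenger RNA of 1 resistant and 1 parental culture was compared. The authors deposited whole-number counts and FPKM per gene, per the file headers. The tools named in the submitters' processing notes are StringTie 1.3.0, HISAT2 2.0.4 and bcl2fastq 2.19, with build GRCh38. For the annotation release, counting settings and strand use, nothing is given in the sources used here. Ratios of the deposited FPKM equalled ratios of counts over library totals within 0.1% in 13649 of 13649 genes with at least 20 counts in both. The log2 fold changes, p-values and q-values of the authors' deposited table come from 1 library against 1 and were not used as evidence.

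CPM used the TMM method of edgeR 4.0.16 (R 4.3.3), with factors of 0.997 for resistant and 1.00 for parental, with no model. The log2 ratio used a pseudocount of 1 on CPM. Ratios of CPM have exact Clopper-Pearson 95% intervals given the sum of both counts, and a count of 0 a floor of 3 counts. PCR copies are not independent molecules. Calculations were tested on simulated data. Exon overlap and gene types came from GENCODE 29 (50111 of 50868 identifiers found). All 55 members are counted; single results that would name a withheld gene are not reported here. Per related list, up to 3 measured genes with the largest log2 ratio were named, beside a few named whatever their values (POR, CYB5A, FDX1, FDXR, ALAS1, AHR, ARNT, NR1I2, NR1I3, HNF4A, VDR, RXRA). RARB, PHF8, PDC, CYP4F26P, COL3A1, COL1A1, PDGFRB, HSD17B2 and PGRMC1 were named after their values were seen. Members and lists were chosen with earlier results of these data known. Protein sequences were not used here.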

Additional observations from a re-analysis of the deposited data

How the results depend on the processing

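In the 12 alternatives tried, no measured P450 gene took the other sign, and none was past the size rule except CYP26A1 under a threshold of 1.5-fold, which gave 1 lower and 0 higher. Changes of pseudocount, CPM minimum or threshold cannot change a sign, so only the settings that rescale or sum the counts could have done so. With a pseudocount of 1, a gene below 1 CPM in both libraries cannot pass the size rule, so lowering the CPM minimum could not add a call. The log2 ratio of CYP26A1 ran from -0.88 to -0.29 over the alternatives, the smaller size coming with the deposited FPKM, where the pseudocount weighs more. Summing counts over genes that share exons moved CYP3A7 to 0.49 and CYP27B1 to 0.19. The number of measured P450 genes was 6 with the deposited FPKM, 8 with a minimum of 5 CPM and 24 with any count, since these settings change the limit itself. Over all genes, any count gave 23635 genes. The counts past the size rule over all genes were 90 higher and 78 lower with FPKM, 431 and 315 with a pseudocount of 0.1, and 711 and 559 with the threshold of 1.5-fold. Scaling by DESeq2 size factors, by totals, by upper quartile or without mitochondrial genes kept every one of these counts within 1.5 times. No paired analysis was possible because each group has 1 library, and no replicate could be left out. Depth limits the 10 P450 genes under the measured limit, whose largest count was 17, and the floors of 0.179 CPM in the resistant and 0.166 CPM in the parental library.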
